A study of Mus musculus with 18 samples.

Results

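Grb10 and Ddc lie next to each other on mouse chromosome 11, and their RNA was read by 5 of the 41174 non-control probes of an Agilent 2-colour mouse array. The probes are all those that the files name Grb10 (3 probes) or Ddc (2 probes), and each was kept apart. Both genes were chosen by their log2 signals per line and their ratios to V6.5 and control lines on these same arrays, so their levels and differences are given as a description, with errors and without tests.

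The study compared RNA of induced pluripotent stem cells (iPSC, somatic cells reprogrammed to a pluripotent state) that lack the DNA methyltransferases Dnmt3a and Dnmt3b with RNA of control iPSC lines. The 36 channels of 18 arrays held 5 kinds of RNA. Deficient iPSC (clones 8, A6 and B2) were each read once against mouse embryonic fibroblasts (MEF) and once against V6.5, a mouse embryonic stem cell (ESC) line. The same 3 clones, described by the submitters as showing some differentiation, were each read against control iPSC lines 3, 4, 5 and 6, with clone and control on the same array. The labels give no genotype beyond deficient and control, no passage number and no separate cultures of a line, so the line was taken as the replicate and the spread between arrays of a line may be technical. All iPSC were cultured on irradiated MEF and taken through 1 or 2 passages on gelatin without new feeders before RNA was isolated.

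Deficient iPSC, V6.5 ESC and MEF were scanned on one day (6 arrays, 2 slides) and the differentiating clones with the control lines on another (12 arrays, 3 slides). Between deficient and control iPSC, genotype and scan day cannot be told apart. The share of probes well above background was 69.7% to 78.9% per channel on the first day and 75.6% to 92.6% on the second. As a check of the labels, the 3 Dnmt3a probes were lower in deficient iPSC than in control lines by log2 differences of -2.31 to -1.10, and lower in the differentiating clones by -2.57 to -0.81, with no overlap of lines. The Dnmt3b probe differed by -0.32 and -0.16, with overlapping lines. The deleted exons are not given in the sources used here, and a probe outside them checks nothing.

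Grb10 encodes an adaptor protein that binds the insulin and IGF1 receptors and restrains growth. It is imprinted: in most mouse tissues the maternal copy is active, while in neurons transcripts from other promoters come from the paternal copy, and the locus carries a methylation mark set in the oocyte. Ddc encodes aromatic L-amino acid decarboxylase, which makes dopamine from L-DOPA and serotonin from 5-hydroxytryptophan, and one of its transcripts is expressed from the paternal copy in the developing heart. Dnmt3a and Dnmt3b place new methylation on DNA, chiefly at CG dinucleotides. Both genes are therefore shown first by the CG content of their promoters.

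RefSeq gives 2 promoters for each gene on build GRCm38.p6, all on the minus strand of chromosome 11, with starts 9.45 kb apart in Grb10 and 7.74 kb apart in Ddc. The 250 bases before each start are printed 5′ to 3′ with every CG dinucleotide in capitals. They are the upstream Grb10 promoter (chr11:12037421-12037670), the downstream Grb10 promoter (chr11:12027972-12028221), the upstream Ddc promoter (chr11:11898145-11898394) and the downstream Ddc promoter (chr11:11890409-11890658).
Grb10 upstream: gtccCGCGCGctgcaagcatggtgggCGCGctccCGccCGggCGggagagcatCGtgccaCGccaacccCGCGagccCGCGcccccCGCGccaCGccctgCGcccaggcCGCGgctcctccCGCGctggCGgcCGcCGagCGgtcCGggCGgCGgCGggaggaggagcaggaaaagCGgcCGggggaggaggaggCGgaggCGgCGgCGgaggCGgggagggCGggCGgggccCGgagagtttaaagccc
Grb10 downstream: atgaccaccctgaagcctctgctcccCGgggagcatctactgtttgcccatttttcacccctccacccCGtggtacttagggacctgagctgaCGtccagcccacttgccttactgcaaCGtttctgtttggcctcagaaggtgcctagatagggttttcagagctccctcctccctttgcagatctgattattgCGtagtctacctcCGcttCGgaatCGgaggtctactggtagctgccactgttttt
Ddc upstream: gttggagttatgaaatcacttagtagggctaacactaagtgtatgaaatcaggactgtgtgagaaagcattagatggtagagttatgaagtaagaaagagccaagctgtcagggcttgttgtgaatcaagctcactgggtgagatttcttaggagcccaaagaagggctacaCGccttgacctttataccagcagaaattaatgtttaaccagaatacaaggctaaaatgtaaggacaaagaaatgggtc
Ddc downstream: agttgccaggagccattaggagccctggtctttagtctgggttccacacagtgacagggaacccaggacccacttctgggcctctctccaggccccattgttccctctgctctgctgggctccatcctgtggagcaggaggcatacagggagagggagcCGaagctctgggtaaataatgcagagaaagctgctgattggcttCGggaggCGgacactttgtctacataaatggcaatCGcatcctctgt
The upstream Grb10 promoter held 40 CG dinucleotides, and 1.31% of the 32841 promoters in the table held at least as many in the same length. The downstream Grb10 promoter held 8, a number reached by 43% of promoters. The Ddc promoters held 1 and 4, numbers reached by 92.1% and 62.2% of promoters, where the median promoter held 6. These counts describe the sequence only, since methylation was not measured on these arrays, and the data do not say which promoter a transcript came from.

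The probes, as the files place them on build mm7, lie on the minus strand of chromosome 11. The Grb10 probes are A_52_P115787 at chr11:11882970-11883029, A_51_P187151 at chr11:11885585-11886233 and A_52_P40363 at chr11:11922579-11922638, with 39.7 kb from first to last base. The Ddc probes are A_52_P470150 at chr11:11767325-11767384 and A_52_P63905 at chr11:11828267-11828326, and 54.6 kb separate the nearest Ddc and Grb10 probes. The files give one transcript for each gene (NM_010345 for Grb10, NM_016672 for Ddc), and no exon or untranslated region was assigned because no annotation of mm7 was used. All 5 probes were well above background in 36 of 36 channels and none was saturated. A_52_P115787 and A_52_P470150 were the brightest of their gene, and the lowest net signal was 2042 for A_52_P115787 but only 49.1 for A_52_P63905. A probe's level depends on its sequence as well as on its RNA, so levels are compared between samples of one probe and never between probes.

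Grb10 was highest in MEF and lowest in V6.5 ESC by its brightest probe, with the iPSC between. On the log2 scale of normalized signal, A_52_P115787 was at 12.79, 13.37 and 13.32 in deficient iPSC (clones 8, A6 and B2) and at 12.72, 13.12 and 13.37 in the differentiating clones in the same order. Control lines 3, 4, 5 and 6 had 12.84, 12.91, 13.05 and 11.80, with 11.65 in V6.5 ESC and 15.82 in MEF. Clone 8 was the lowest of its group in both states, and control line 6 lay well below lines 3, 4 and 5, close to V6.5 ESC. The means were 13.16 ± 0.322 in deficient iPSC, 13.07 ± 0.329 in differentiating clones (SD, n = 3 each) and 12.65 ± 0.572 in control lines (SD, n = 4), so neighbouring kinds of iPSC in this order overlapped. V6.5 ESC and MEF are 1 RNA each, with no spread of their own.

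The dimmer Grb10 probes shared the high level in MEF and the low level in control line 6, while the place of V6.5 ESC on them depended on the processing. A_52_P40363 was at 9.44, 9.27 and 9.67 in deficient iPSC, at 8.73, 8.66 and 8.60 in differentiating clones and at 8.80, 8.99, 9.14 and 7.95 in control lines 3 to 6. It was at 8.83 in V6.5 ESC and 10.74 in MEF. Every deficient line lay above every control line on this probe, and V6.5 ESC lay among lines 3 to 5. The V6.5 ESC value rests on 3 channels at 8.21, 9.19 and 9.22 whose net signals were close (297, 299 and 288). With Agilent's processed signals or with no background correction V6.5 ESC lay below lines 3, 4 and 5 and above line 6, at 8.25 and 7.77, against 7.98 and 7.51 in line 6. Without normalization between arrays V6.5 ESC lay above all control lines, at 9.17 against 8.94 in the highest. The same held with each channel scaled to its 75th percentile, at 9.064 against 8.997. A_51_P187151 was at 8.41, 8.39 and 8.42 in deficient iPSC, at 8.07, 8.16 and 8.24 in differentiating clones, at 8.21, 8.16, 8.15 and 7.75 in control lines 3 to 6, at 8.23 in V6.5 ESC and at 9.79 in MEF. Here too the deficient lines lay above all control lines, with 0.0234 log2 units between the lowest and the highest deficient line. Their spread was wider under some other processing. It gave 8.16, 8.56 and 8.47 with Agilent's processed signals and 8.50, 8.01 and 8.09 with each channel scaled to its 75th percentile (clones 8, A6 and B2). Across the 10 iPSC values the brightest probe correlated with the dimmer ones at r = 0.66 and r = 0.82, a description over lines that share clones and scan days.

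Ddc ran the other way in fibroblasts: MEF had the lowest level on both probes. A_52_P470150 was at 11.50, 12.03 and 11.81 in deficient iPSC (clones 8, A6 and B2), at 10.58, 10.77 and 10.93 in differentiating clones, at 10.90, 10.63, 10.58 and 10.87 in control lines 3 to 6, at 11.15 in V6.5 ESC and at 9.31 in MEF. The deficient iPSC were above every other RNA, and differentiating clones and control lines lay in one range. A_52_P63905 was at 8.34, 8.36 and 8.29 in deficient iPSC, at 7.55, 7.73 and 7.71 in differentiating clones, at 7.93, 7.60, 7.54 and 8.04 in control lines 3 to 6, at 8.34 in V6.5 ESC and at 7.43 in MEF. On this probe V6.5 ESC lay within the deficient iPSC. The 2 Ddc probes correlated at r = 0.92 over the 10 iPSC values, and the brightest Grb10 and Ddc probes at r = 0.38, falling to -0.11 over the 7 lines read on the second day.

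**Figure D1:**
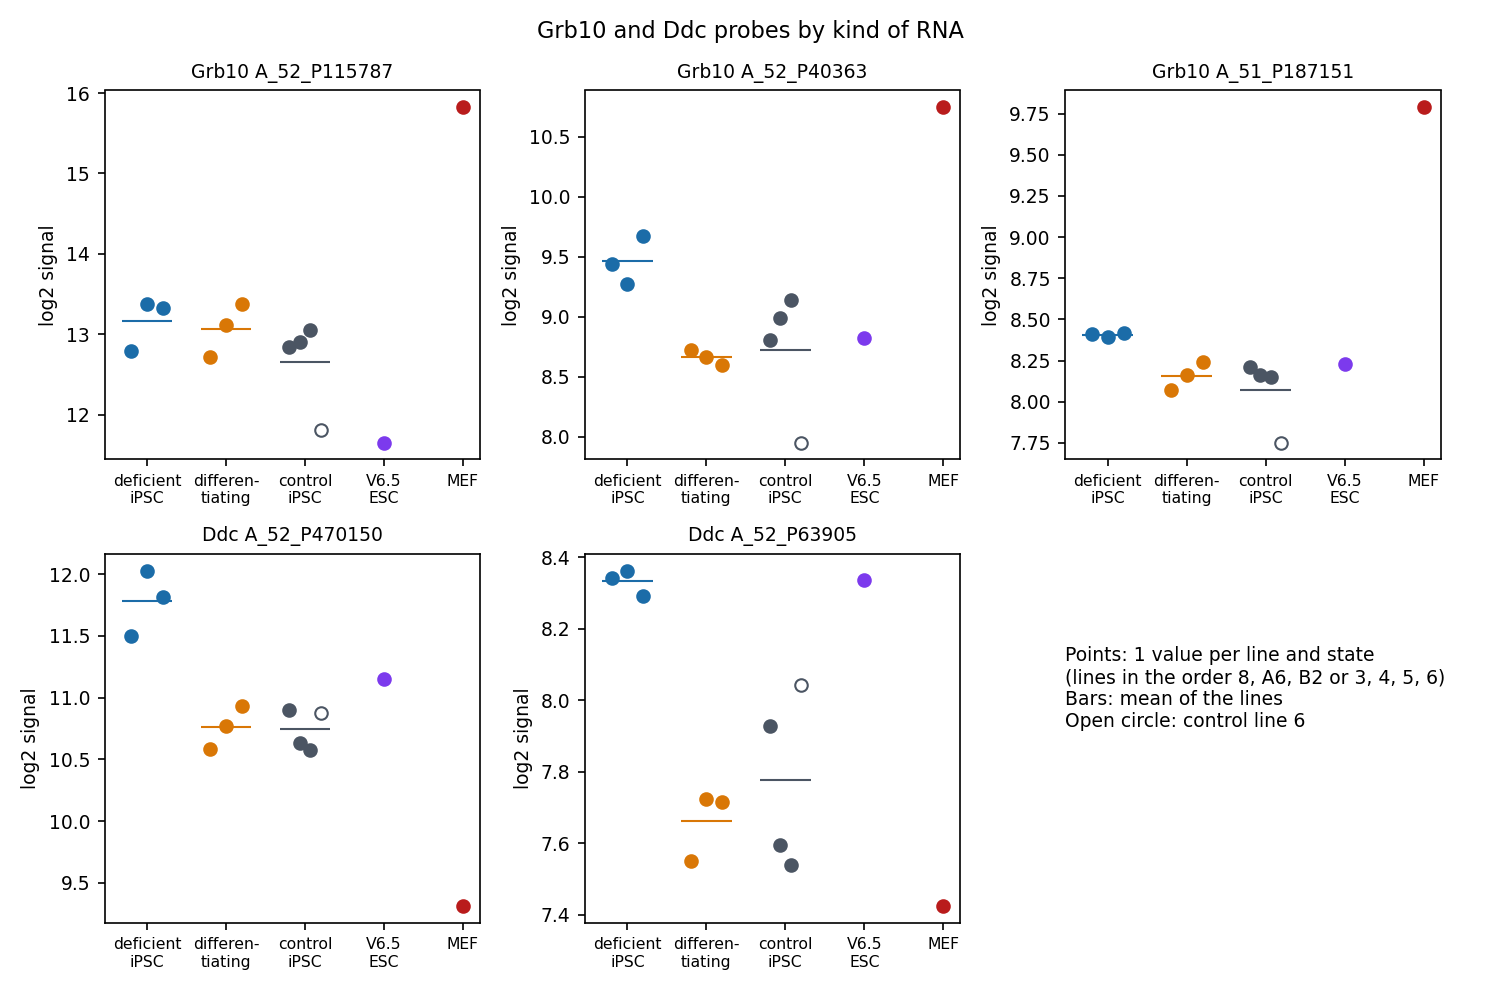
Log2 signal of the 3 Grb10 and 2 Ddc probes (vertical axis, 1 panel per probe) in deficient iPSC, differentiating deficient clones, control iPSC, V6.5 ESC and MEF (horizontal axis). Each point is 1 line and state, bars are means of lines, and the open circle is control line 6, which at 11.80 on the brightest Grb10 probe is the lowest control line.

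Control line 6 carried less Grb10 RNA than the other control lines on all 3 probes. It was below the mean of lines 3, 4 and 5 by a log2 difference of -1.13 on A_52_P115787 (2.19-fold lower, against 12.94 ± 0.108 in lines 3 to 5, SD, n = 3), by -1.02 on A_52_P40363 (2.03-fold lower) and by -0.42 on A_51_P187151 (1.34-fold lower). Over all tested probes, 36.2% had line 6 below the other 3 lines, and 0.833% had it at least 1 log2 unit below their mean. The 2 Ddc probes were not low in line 6: it was 0.17 and 0.35 above the mean of lines 3 to 5. On the brightest Grb10 probe line 6 was 0.15 above V6.5 ESC, and -0.03 from it with Agilent's processed signals. The difference there was 0.65 with each channel scaled to its 75th percentile, 0.102 with no background correction and -0.085 without normalization between arrays. On the dimmer probes it lay below V6.5 ESC, with log2 differences of -0.87 on A_52_P40363 and -0.48 on A_51_P187151. In the same order they were -0.27 and -0.27 with the processed signals and -0.26 and -0.11 with no background correction. They grew to -1.39 and -0.997 without normalization between arrays and to -1.288 and -1.304 with each channel scaled to its 75th percentile.

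The differentiating clones and control lines shared arrays, so their ratios can be read array by array. Against control line 6, the log2 ratio of A_52_P115787 was 1.07 for clone 8, 1.20 for clone A6 and 1.43 for clone B2. Against lines 3, 4 and 5, clone 8 had ratios of -0.15, -0.21 and -0.66, clone A6 had 0.08, 0.05 and 0.27, and clone B2 had 0.44, 0.53 and 0.30. Every ratio against line 6 was above every ratio against the other lines, and among the other lines the sign followed the clone: negative in 3 of 3 for clone 8 and positive in 3 of 3 for both A6 and B2. The mean ratio against lines 3 to 5 was -0.34 ± 0.277 for clone 8, 0.13 ± 0.117 for A6 and 0.42 ± 0.116 for B2 (SD over 3 arrays, which share the clone's RNA).

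Both dimmer Grb10 probes also had their highest ratios against line 6, while the order of the clones recurred on A_51_P187151 and not on A_52_P40363. On A_52_P40363 the ratios against line 6 were 0.75, 0.73 and 0.58 for clones 8, A6 and B2, while the 9 ratios against lines 3 to 5 ran from -0.59 to -0.02. On A_51_P187151 the ratios against line 6 were 0.30, 0.39 and 0.58, while the others ran from -0.09 to 0.14. Clone B2 was the highest of the 3 clones against line 6 on A_52_P115787 and A_51_P187151 and the lowest on A_52_P40363.

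Ddc ratios stayed near 0. On A_52_P470150 the 12 ratios ran from -0.34 to 0.46, with 6 above 0, and their mean was -0.02 ± 0.202 (SD over 12 arrays). On A_52_P63905 they ran from -0.57 to 0.31, with 5 above 0. The array that paired clone 8 with line 5 read A_52_P470150 low in both channels, at 9.16 for clone 8 and 9.11 for line 5, against 10.56 to 11.10 in the other 22 channels of these arrays. Its ratio of 0.05 was like those of the other arrays, so this array lowered the levels of clone 8 and line 5 but not their ratio.

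**Figure D2:**
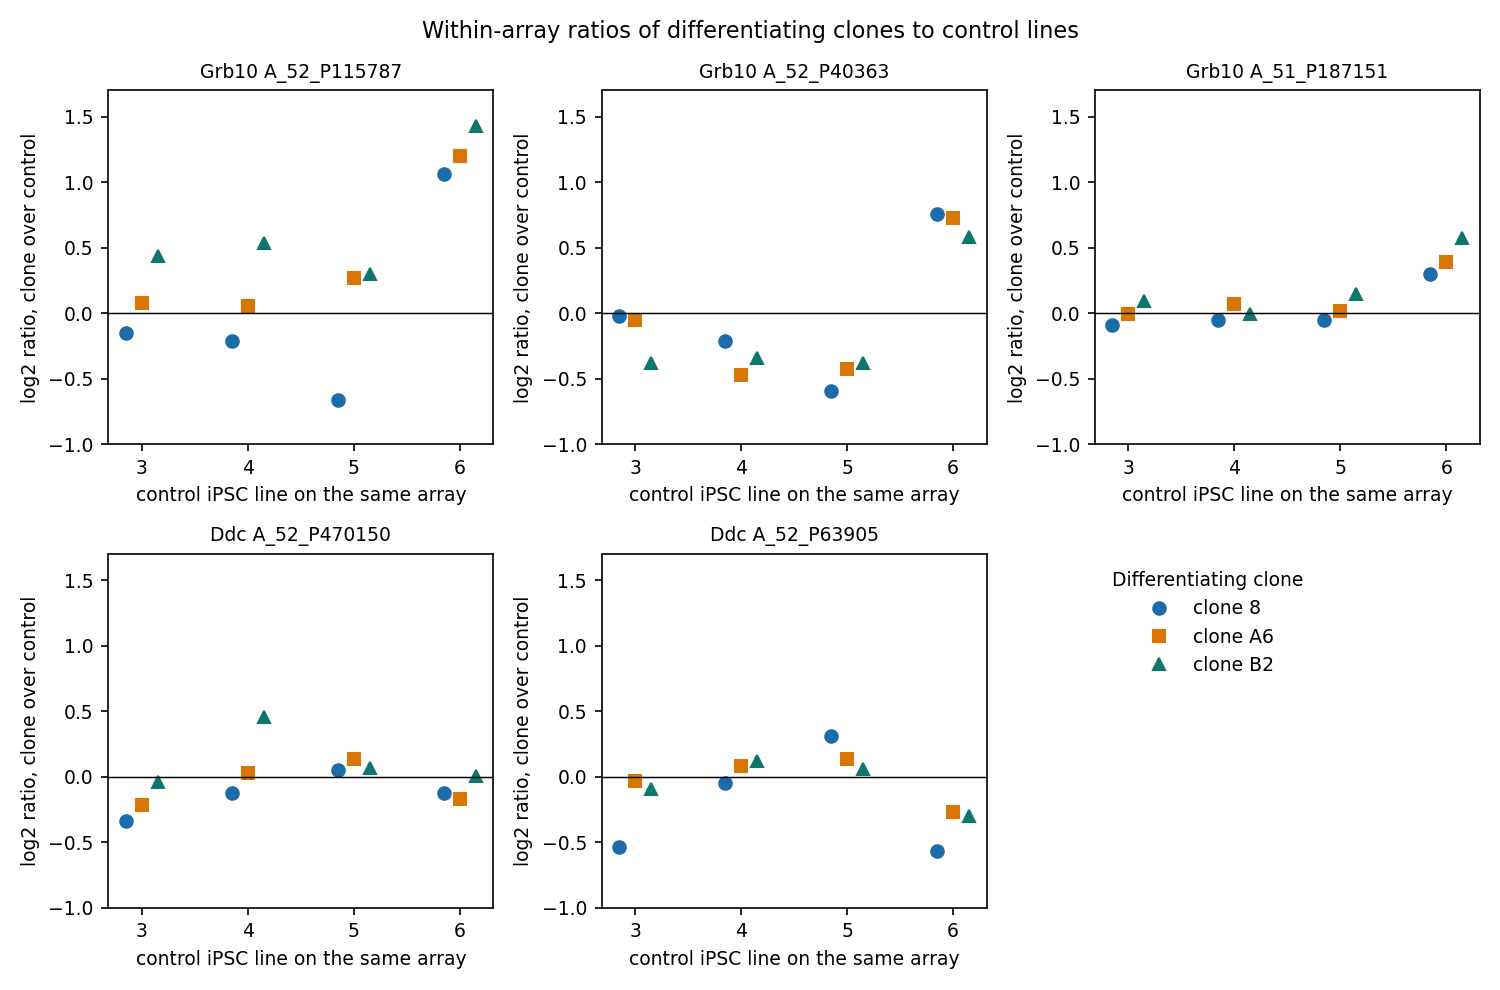
Log2 ratio of each differentiating clone over the control line on the same array (vertical axis) by control line (horizontal axis), 1 panel per probe, with symbols for clones 8, A6 and B2. Ratios of the 3 Grb10 probes are highest against line 6, up to 1.43, and Ddc ratios lie between -0.57 and 0.46.

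As groups, differentiating clones and control lines overlapped on all 5 probes. Over all tested probes, 19.6% had lines that did not overlap, and 4.6% were called by limma at an adjusted p under 0.05. The log2 difference of A_52_P115787 was 0.42 ± 0.325 (SE; 13.07 against 12.65, 3 and 4 lines), and without control line 6 it was 0.13 ± 0.164. The difference of A_52_P40363 was -0.06 ± 0.274, and -0.31 ± 0.0880 without line 6. The difference of A_51_P187151 was 0.09 ± 0.118, and -0.02 ± 0.0513 without line 6. Ddc differed by 0.01 ± 0.116 on A_52_P470150 and by -0.11 ± 0.136 on A_52_P63905. The number of genes called in this comparison, 1203 of 24969, was unstable: it was 0 without clone A6 or clone B2 (3770 and 4178 at an unadjusted p under 0.05), 1 without line 3, 27 without line 4 and 3460 without line 6.

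Deficient iPSC, read on the other scan day, were above all control lines on 4 of the 5 probes, the exception being A_52_P115787. Over all tested probes, 20.2% were above all control lines in this way, and 45.7% were called at an adjusted p under 0.05. The mean of A_52_P470150 (Ddc) was 11.78 ± 0.266 in deficient iPSC and 10.75 ± 0.165 in control lines (SD, n = 3 and 4), a log2 difference of 1.03 ± 0.142 (SE; 2.05-fold). The control mean includes line 5, whose level was lowered by the array that read this probe low in both channels. A_52_P63905 differed by 0.56 ± 0.130. Grb10 differed by 0.51 ± 0.321 on A_52_P115787, by 0.74 ± 0.283 on A_52_P40363 and by 0.34 ± 0.112 on A_51_P187151, and without line 6 these became 0.23 ± 0.159, 0.49 ± 0.123 and 0.23 ± 0.0370. The Ddc differences without line 6 were 1.07 ± 0.149 and 0.64 ± 0.103. V6.5 ESC, which carry no deficiency and were read on the same day as the deficient iPSC, were also above all control lines on both Ddc probes (11.15 and 8.34). Without normalization between arrays, which put the median of all genes at 0.44 in place of -0.06, the Ddc differences were 1.41 and 0.98 and the Grb10 differences 0.80 on A_52_P115787, 1.29 on A_52_P40363 and 0.89 on A_51_P187151. With Agilent's processed signals A_51_P187151 differed by 0.77 and A_52_P63905 by 1.12. With each channel scaled to its 75th percentile, deficient and control lines overlapped on A_51_P187151 and A_52_P63905, and V6.5 ESC lay within the control lines on A_52_P470150 (10.77).

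The differentiating clones were below the same clones without signs of differentiation on both Ddc probes. On A_52_P470150 they were at 10.58, 10.77 and 10.93 against 11.50, 12.03 and 11.81 in deficient iPSC (clones 8, A6 and B2), a paired log2 difference of -1.02 ± 0.0900 (SE, 3 pairs). A_52_P63905 differed by -0.67 ± 0.0575. Of the Grb10 probes, A_52_P40363 differed by -0.80 ± 0.103 and A_51_P187151 by -0.25 ± 0.0490, while A_52_P115787 differed by -0.09 ± 0.0715 and was lower in 2 of 3 clones. On the other 4 probes all 3 differentiating clones were below all 3 deficient iPSC, as on 25.7% of all tested probes, and 52.5% of probes were called. The 2 states were read on different scan days, and what part of these differences belongs to the day was not tested.

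Against V6.5 ESC on the same arrays, Grb10 was higher in the deficient iPSC of each clone. The log2 ratio of A_52_P115787 was 0.98 for clone 8, 1.76 for A6 and 1.55 for B2, or 1.97-fold, 3.39-fold and 2.92-fold. With the dye term the difference was 1.60 ± 0.350 (SE). A_52_P40363 had ratios of 1.09, 0.23 and 0.57 in the same order, and A_51_P187151 had 0.58, 0.06 and 0.13. These sizes on the dimmer probes differed from the authors' deposited values: the log ratios in the authors' deposited table for A_52_P40363 were 1.14, 1.52 and 1.78, and for A_51_P187151 0.59, 0.88 and 0.83. All 5 probes had 3 ratios above 0, as did 32.2% of all probes with 3 ratios, and 4.27% of probes were called. Ddc ratios were 0.19, 0.88 and 0.63 on A_52_P470150, a difference of 0.68 ± 0.133, and 0.04, 0.03 and 0.02 on A_52_P63905. The differences of A_51_P187151 (0.25 ± 0.143) and A_52_P63905 (0.02 ± 0.152) turned to -0.61 and -1.05 when each channel was scaled to its 75th percentile, a scaling that put the median of all genes at -0.75 in place of 0.03.

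Against MEF, Grb10 was lower and Ddc higher in deficient iPSC, on all arrays. The ratio of A_52_P115787 was -2.88 for clone 8, -2.48 for A6 and -2.39 for B2, which is 7.34-fold, 5.56-fold and 5.25-fold lower than in MEF. A_52_P40363 had ratios of -1.65, -1.32 and -0.86 and A_51_P187151 of -1.72, -1.33 and -1.34. Ddc A_52_P470150 had ratios of 2.38, 2.70 and 2.51, or 5.19-fold to 6.5-fold higher, and A_52_P63905 of 0.89, 0.90 and 0.82. Over all probes with 3 ratios, 38.6% had 3 below 0 and 39.2% had 3 above 0, and 59.3% of probes were called. Clone 8 had the lowest ratio of A_52_P115787 to both V6.5 ESC and MEF, and as a differentiating clone to each of control lines 3 to 6.

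**Figure D3:**
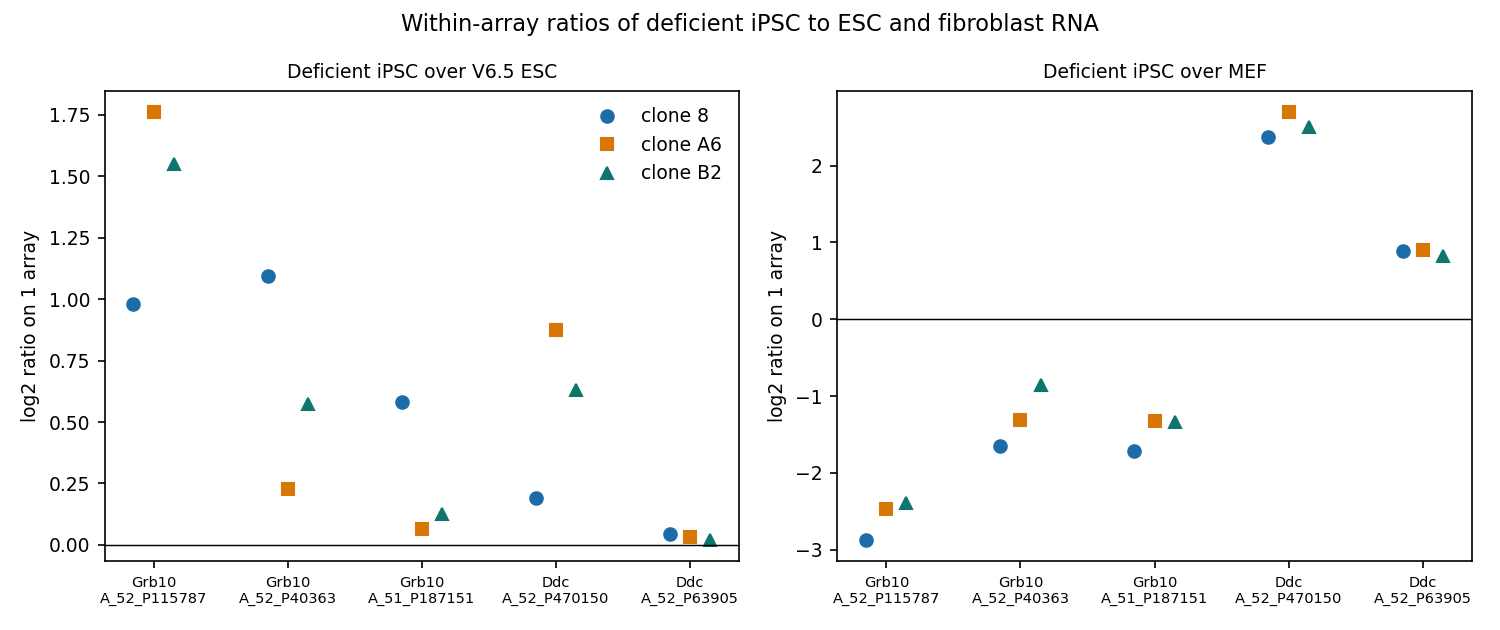
Log2 ratio of deficient iPSC over V6.5 ESC (left) and over MEF (right) on single arrays (vertical axis) for the 5 probes (horizontal axis), with symbols for clones 8, A6 and B2. Grb10 A_52_P115787 lies at 0.98 to 1.76 over V6.5 ESC and at -2.88 to -2.39 over MEF, while both Ddc probes lie above 0 over MEF.

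Because MEF had the highest Grb10 level and the iPSC had grown on MEF feeders, fibroblast markers were read in every line. The mean log2 signal of 18 fibroblast and feeder markers was 11.06 to 11.19 in deficient iPSC, 11.09 to 11.52 in differentiating clones, 11.70 to 12.39 in control lines, 10.89 in V6.5 ESC and 15.39 in MEF. All 18 were well above background in every channel of every kind. The summed signal was 93466 to 105306 in deficient iPSC, 104318 to 126906 in differentiating clones and 149245 to 247949 in control lines, against 2268990 in MEF. In the deficient iPSC 13 of 18 markers were lower than in control lines and 2 higher (over all genes, 31.1% were called lower and 15.3% higher), led by S100a4, a calcium-binding protein of fibroblasts (-2.28 ± 0.230, adjusted p = 0.00052 by limma), and Col1a1, a chain of type I collagen (-1.96 ± 0.272, adjusted p = 0.00165). In the differentiating clones 4 passed the test against control lines, all lower (over all genes, 2.53% were called lower and 2.29% higher), led by Col3a1, a fibrillar collagen (-1.61 ± 0.289, adjusted p = 0.0375), and Tagln, a smooth-muscle actin-binding protein (-1.36 ± 0.249, adjusted p = 0.0392). The mean of A_52_P115787 was not higher in the control lines, which had the higher fibroblast signal. Within the control lines, line 6 had the lowest fibroblast mean (11.70) as well as the lowest Grb10. The part of the markers in these Grb10 levels was not tested, and in bulk RNA fewer cells of a type cannot be told apart from less RNA per cell.

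Endoderm markers moved with the differentiating state. The mean of 17 markers was 9.81 to 10.58 in differentiating clones, 8.56 to 9.70 in deficient iPSC, 8.55 to 9.24 in control lines, 8.49 in V6.5 ESC and 9.05 in MEF. Of the 17, 14 were higher and 1 lower in differentiating clones than in deficient iPSC, read on another scan day (over all genes, 33.2% and 19.3%). The 14 were led by Foxa2, a forkhead factor of endoderm (2.86 ± 0.304, adjusted p = 0.00537 by limma), and Cubn (2.62 ± 0.646, adjusted p = 0.0321). In deficient iPSC 2 were higher and 4 lower than in control lines (over all genes, 15.3% and 31.1%), with Afp among the higher (0.46 ± 0.138, adjusted p = 0.0312). In the differentiating clones 5 of the same 17 passed the test against control lines, all higher (over all genes, 2.29% were called higher and 2.53% lower). The 5 were led by Cubn, an endocytic receptor of visceral endoderm (3.81 ± 0.579, adjusted p = 0.0298 by limma), and Foxa2 (2.67 ± 0.449, adjusted p = 0.0339). Clone 8 had the highest endoderm mean in both states (10.58 and 9.70) and the lowest level of A_52_P115787 in both. Afp was well above background in no channel of V6.5 ESC, and in MEF this held for Sox7, Afp, Apoa1 and Foxa1. What part these cells have in the Grb10 levels was not tested.

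**Figure D4:**
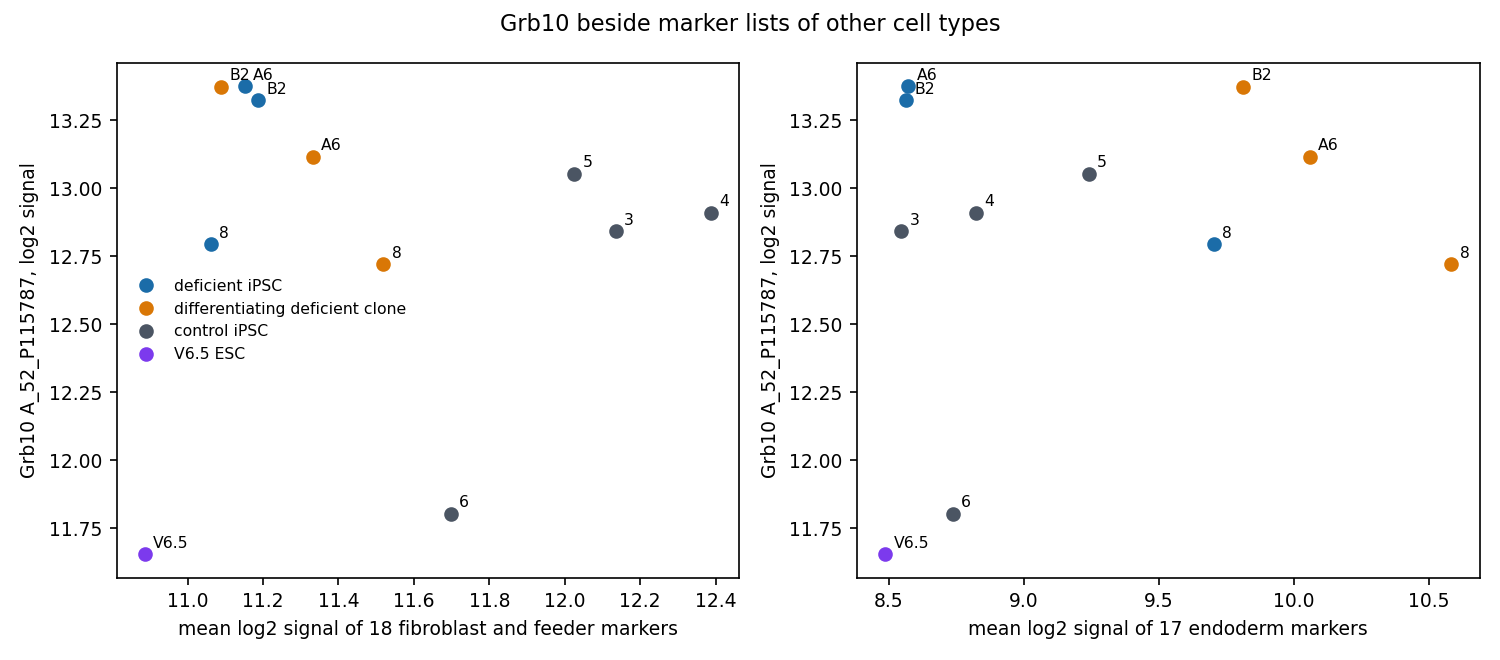
Log2 signal of Grb10 A_52_P115787 (vertical axis) against the mean log2 signal of 18 fibroblast and feeder markers (left) and 17 endoderm markers (right). Points are lines and states labelled by name, without MEF; control line 6 (11.80) and V6.5 ESC (11.65) are the lowest in Grb10.

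Neural and neuroendocrine markers, read because Ddc is a gene of amine-producing cells, had a mean of 8.91 to 8.95 in differentiating clones, 8.94 to 8.99 in deficient iPSC, 8.82 to 8.97 in control lines, 8.80 in V6.5 ESC and 8.60 in MEF. Of 12 markers, 4 were higher and 5 lower in deficient iPSC than in control lines (over all genes, 15.3% and 31.1%), led by the transcription factor Pax6 (1.08 ± 0.247, adjusted p = 0.0118 by limma) and by Nes, an intermediate filament protein (-0.83 ± 0.0900, adjusted p = 0.000665). Pluripotency markers had means of 13.18 to 13.46 in differentiating clones, 13.93 to 14.27 in deficient iPSC, 13.26 to 13.63 in control lines, 14.71 in V6.5 ESC, the highest, and 9.73 in MEF. Of 8 pluripotency markers, 6 were lower in differentiating clones than in deficient iPSC (over all genes, 19.3%), led by Nanog (-1.59 ± 0.143, adjusted p = 0.00445 by limma) and Klf4 (-0.99 ± 0.266, adjusted p = 0.0401). Between differentiating clones and control lines, which shared arrays, 0 of the 8 were called (over all genes, 2.29% higher and 2.53% lower). In deficient iPSC 5 were higher and 0 lower than in control lines (over all genes, 15.3% and 31.1%). Deficient iPSC were read on another scan day than both, and the part of the day was not tested.

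Genes of insulin and IGF signalling, on which Grb10 acts, changed in both directions between deficient iPSC and control lines. Of 24 measured genes, 6 were higher and 5 lower in deficient iPSC than in control lines (over all genes, 15.3% and 31.1%), with a median difference of 0.02 against -0.06 over all genes, and without normalization between arrays 16 were higher and 1 lower. The largest were Gigyf2, a translational repressor that binds Grb10 (2.01 ± 0.242, adjusted p = 0.000964 by limma), and Igf2, the imprinted growth factor (1.5 ± 0.210, adjusted p = 0.00169). Igf2 was at 12.33, 12.30 and 12.32 in deficient iPSC and at 11.16, 10.97, 10.23 and 10.90 in control lines 3 to 6, without overlap. Irs1, a docking protein of both receptors, was lower (-1.46 ± 0.324, adjusted p = 0.0106), and so was Igf1r, the IGF1 receptor (-0.73 ± 0.179, adjusted p = 0.0153). Insr, the insulin receptor, was at 8.42 in deficient iPSC and 8.41 in control lines (means; difference 0.02, adjusted p = 0.947). In V6.5 ESC, scanned with the deficient iPSC, Gigyf2 was at 11.52 and Igf2 at 11.71, both above all control lines. Gigyf2 was at 11.69, 11.48 and 11.30 in deficient iPSC and at 10.02, 9.56, 9.38 and 8.95 in control lines 3 to 6. What part of these differences belongs to the scan day was not tested.

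In the differentiating clones 1 of the 24 genes passed the test against control lines, Pik3ca, the catalytic subunit of a phosphoinositide 3-kinase, at -0.38 ± 0.0741 (adjusted p = 0.0444 by limma). Over all genes 2.29% were called higher and 2.53% lower in this comparison. Between the states of the same clones 6 rose and 7 fell in the differentiating clones (over all genes, 33.2% and 19.3%; 22 fell and none rose without normalization between arrays), and Igf2 (-2.18 ± 0.0959, adjusted p = 0.00403) and Gigyf2 (-1.79 ± 0.147, adjusted p = 0.00412) fell the most. The states were read on different scan days, and the part of the day was not tested. Against V6.5 ESC 1 of the 24 passed, Igf2r, an imprinted receptor that clears IGF2 (0.46 ± 0.115, adjusted p = 0.0266). Over all genes 3.54% were called higher and 1.87% lower there. Against MEF 6 were higher and 13 lower (over all genes, 28.2% and 30%), led by Irs1 at -5.09 ± 0.356 (adjusted p = 4.2e-09) and Grb7, a relative of Grb10, at 4.26 ± 0.390 (adjusted p = 5.9e-08). Grb14, the other relative, was also lower than in MEF (-2.88 ± 0.147), as Grb10 was. Grb7 resembled Grb10 in control line 6, where it was at 12.78, against 14.16, 14.25 and 14.27 in lines 3, 4 and 5. Irs1, Igf1r and Insr were also lowest in line 6, with Irs1 at 9.45, against 10.47, 10.87 and 10.62. Grb2 was highest there, at 13.33, against 13.03, 13.03 and 13.08. Over all tested probes, 36.2% had line 6 below lines 3, 4 and 5.

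Genes that make and handle the amines of the Ddc pathway changed in both directions. Of 21 measured genes, 3 were higher and 12 lower in deficient iPSC than in control lines (over all genes, 15.3% and 31.1%), and without normalization between arrays 14 were higher and 2 lower. The 2 largest were Maob, a monoamine oxidase (-0.67 ± 0.0450, adjusted p = 0.0002 by limma), and Pcbd1, which recycles the tetrahydrobiopterin cofactor (-0.62 ± 0.139, adjusted p = 0.0108). Th, the tyrosine hydroxylase that makes L-DOPA, was at 7.41 to 7.42 in deficient iPSC and at 7.54 to 7.57 in control lines. In V6.5 ESC, scanned with the deficient iPSC, Th was at 7.43. In differentiating clones Hdc, which makes histamine (1.49 ± 0.222, adjusted p = 0.0294), and Pcbd1 (0.85 ± 0.172, adjusted p = 0.0473) were higher than in control lines, and Maob was lower (-0.26 ± 0.0511, adjusted p = 0.0446). Over all genes 2.29% were called higher and 2.53% lower in this comparison. Between states 13 rose and 3 fell (over all genes, 33.2% and 19.3%; 4 and 13 without normalization between arrays), with Pcbd1 at 1.47 ± 0.0604 and Hdc at 0.88 ± 0.184 (adjusted p = 0.00403 and 0.0217), while both Ddc probes were lower. Some that rose were dim and moved little, such as Th (0.15 ± 0.0365, to a mean of 7.57 in differentiating clones). The states were read on different scan days, and the part of the day was not tested. Against V6.5 ESC 1 passed, Slc18a1, a vesicular amine transporter (0.20 ± 0.0453, adjusted p = 0.0137), which turned to -0.37 when each channel was scaled to its 75th percentile. Over all genes 3.54% were called higher and 1.87% lower against V6.5 ESC. Against MEF 7 were higher and 5 lower (over all genes, 28.2% and 30%), with Maob at -2.72.

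Among 19 other imprinted genes in regions with a methylation mark on the maternal copy, 4 were higher and 2 lower in deficient iPSC than in control lines (over all genes, 15.3% and 31.1%), with a median of 0.08 against -0.06 over all genes, and without normalization between arrays 10 were higher. Peg3, a paternally expressed zinc finger gene (1.08 ± 0.210, adjusted p = 0.00644 by limma), and Slc38a4, an amino acid transporter (0.89 ± 0.133, adjusted p = 0.0022), were higher, and Sgce, a sarcoglycan, was lower (-0.64 ± 0.145, adjusted p = 0.0119). In the differentiating clones 1 of the 19 passed against control lines (over all genes, 2.29% were called higher and 2.53% lower). It was Cdkn1c, a maternally expressed inhibitor of the cell cycle, at 0.52 ± 0.0952 (adjusted p = 0.0385 by limma). Peg3 was at 10.21, 10.59 and 10.55 there, against 10.16, 9.83, 9.95 and 9.26 in control lines 3 to 6, a difference of 0.65 (adjusted p = 0.146). Between the states of the clones, read on different scan days, 4 rose and 2 fell (over all genes, 33.2% and 19.3%; 11 fell without normalization between arrays). They were led by Sgce at 0.87 ± 0.245 and Snrpn, a paternally expressed splicing protein, at -0.62 ± 0.125 (adjusted p = 0.0445 and 0.0195). Against V6.5 ESC, Peg3 (1.60 ± 0.295, adjusted p = 0.00419), Cdkn1c (0.76 ± 0.167, adjusted p = 0.0135) and Igf2r were higher, 3 of the 19 (over all genes, 3.54% were called higher and 1.87% lower). Against MEF 3 were higher and 9 lower (over all genes, 28.2% and 30%), led by Phlda2 at 3.90 and Plagl1 at -3.67.

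Within 1 Mb of the Grb10 and Ddc probes the files place 14 other probes of 11 genes, and 12 of them, of 10 genes, passed the filter. Of these 12 probes, 0 were called by limma between differentiating clones and control lines (1 at an unadjusted p under 0.05) and 0 between deficient iPSC and V6.5 ESC (4 at an unadjusted p under 0.05). In deficient iPSC 2 were higher and 3 lower than in control lines. Over all probes the shares called were 4.6%, 4.27% and 45.7% in these 3 comparisons, and 5 of 12 is near the last. The 2 higher were probes of Fignl1, an ATPase of DNA repair that lies next to Ddc (chr11:11752858-11752917 and chr11:11752903-11752962, mm7), at 0.31 ± 0.0523 and 0.38 ± 0.0545 (adjusted p = 0.00376 and 0.00197 by limma). Their positions overlap in part, and another Fignl1 probe did not pass the filter. Fignl1 was also lower in differentiating clones than in deficient iPSC, by -0.36 ± 0.0555 and -0.41 ± 0.0462, in the direction of both Ddc probes. Over all probes 52.5% were called between these states, which were read on different scan days. V6.5 ESC, scanned with the deficient iPSC, were at 12.50 and 12.87 on the Fignl1 probes, above all control lines (up to 12.35 and 12.71). Cobl, an actin nucleator on the other side of Grb10 (chr11:12188809-12188868), differed between deficient iPSC and V6.5 ESC by -1.23 ± 0.455 (adjusted p = 0.164). In control line 6, where Grb10 was low, the 12 neighbouring probes differed from the mean of lines 3 to 5 by -0.03 to 1.22, with 3 below it. Cobl was the highest of these, at 12.60 in line 6 against 11.83, 11.27 and 11.03 in lines 3, 4 and 5.

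**Figure D5:**
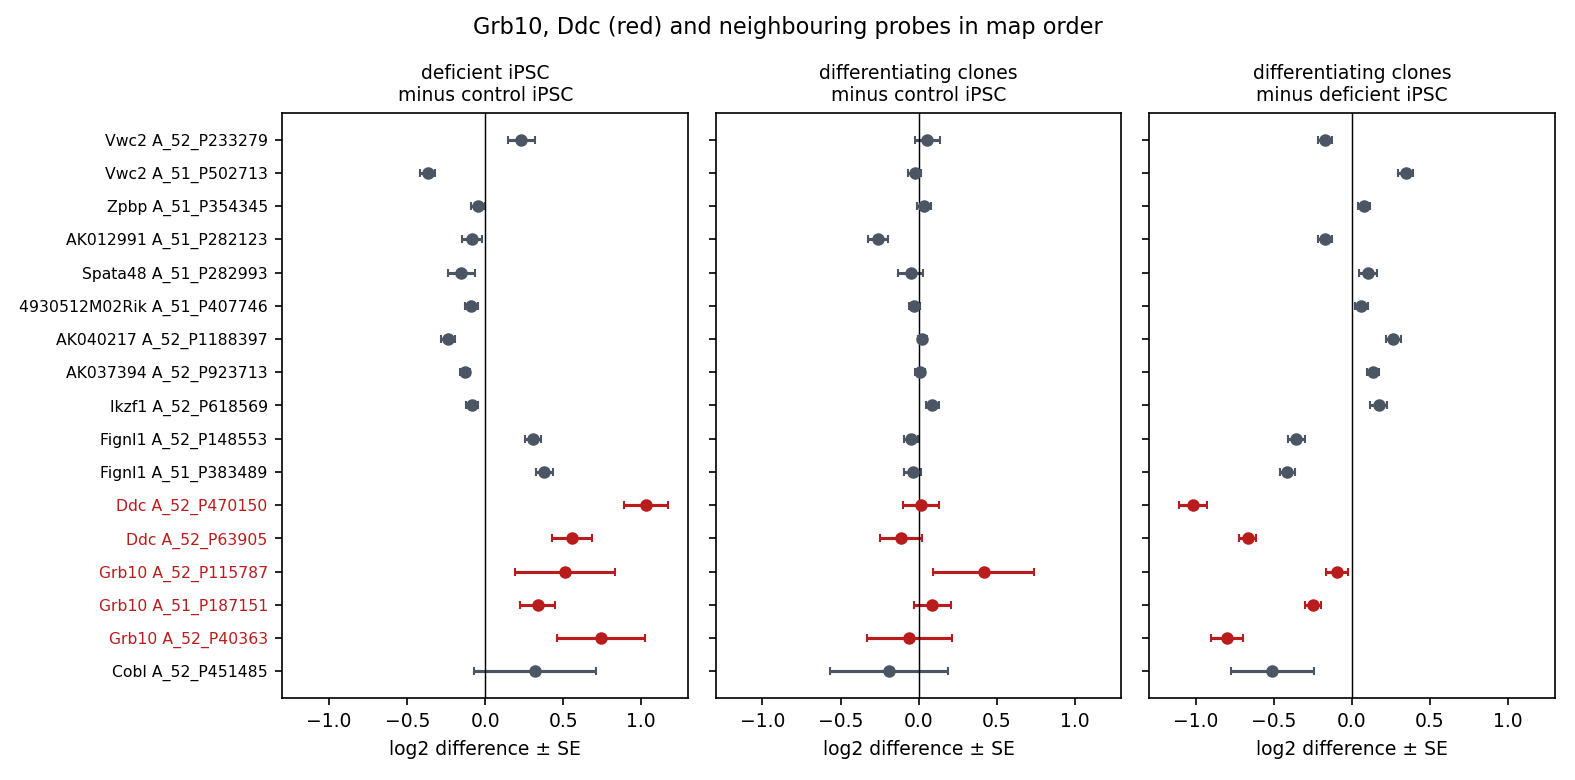
Log2 difference ± SE (horizontal axis) of the Grb10 and Ddc probes (red) and 12 neighbouring probes (grey) in map order (vertical axis), for 3 comparisons. Both Ddc probes and Fignl1 lie above 0 in deficient iPSC and below 0 in the differentiating clones relative to deficient iPSC, and Ddc lies at 0.01 and -0.11 between differentiating clones and control lines.

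Over the 10 iPSC values, the genes most like Grb10 A_52_P115787 among 3885 with an SD of at least 0.3 included Rapgef5 (r = 0.96), Phf21a (r = 0.95), Tcf19 (r = 0.94) and Celf5 (r = 0.94). Each of these was low in control line 6: Rapgef5 was at 9.64 there, against 10.35 to 10.51 in lines 3 to 5, and Phf21a was at 9.83, against 10.80 to 10.94. In MEF Rapgef5 was at 7.30 and Phf21a at 10.69, while Tcf19 was at 11.26, its highest level. The genes most like Ddc A_52_P470150 were Ercc3 (r = 0.99), Upf3b (r = 0.99), Rnf40 (r = 0.99), Nol8 (r = 0.98) and Mrps14 (r = 0.98). Each was higher in all deficient iPSC than in all lines read on the second day: Upf3b was at 11.68 to 12.25 in deficient iPSC, 10.43 to 10.67 in differentiating clones, 10.18 to 10.69 in control lines 3 to 5, 10.86 in line 6 and 11.93 in V6.5 ESC. These correlations rest on lines that share clones, slides and scan days.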

How the data were processed

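RNA was measured on 18 Agilent 2-colour arrays. Per the file headers, Agilent Feature Extraction wrote for each dye a spot's mean intensity, its local background and a processed intensity that is background-subtracted and dye-normalized. The authors' deposited value table holds log2 ratios. Its scale and direction are not stated, and were read from its slope of 1.01 to 1.41 and correlation of 0.64 to 1.00 with the scanner ratios of the clone over its partner (medians -0.01 to 0.01). The submitters' processing notes name limma without a version. Probe positions are on build mm7, per the file headers.

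Mean intensities were processed with limma 3.58.1 in R 4.3.3 (data.table at version 1.17.8): normexp background correction with an offset of 50, loess within each array, then Aquantile across arrays, which hides a change in the RNA level of most genes. Probes were tested when a share of 0.5 or more of the channels of any 1 kind of RNA was well above background (36967 of 41174 probes), and a gene was its brightest probe (24971 genes). Each line and state got 1 log2 value from a separate-channel fit (36 channels, 12 terms plus dye; correlation within spots 0.79). Limma compared lines, as pairs between states of a clone, and compared deficient iPSC with V6.5 ESC and MEF on within-array ratios with a dye term, where the SE pools all 18 arrays. Adjusted p-values are Benjamini-Hochberg over the whole table, two-sided, with calls under 0.05. The fits were tested on simulated data. V6.5 ESC and MEF were read in 1 dye each.

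The 2 genes, the probes and the lists were chosen with earlier results of these data known. Named genes are neighbours within 1 Mb, the 2 called list members with the largest difference and examples, and for each gene the 5 genes most correlated with its brightest probe; some of these are not reported here. Lists were insulin and IGF signalling, amine handling, imprinted genes with a maternal mark, and markers of fibroblasts, endoderm, neural cells and pluripotency. Promoters are RefSeq's (GRCm38.p6). Alternatives were other background corrections and scalings, no filter, dye or slide terms, the deposited ratios, and leaving out each line. The number of lines and arrays limits the precision.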

Additional observations from a re-analysis of the deposited data

Results flagged for a closer look

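Among 20 groups of values of the 5 probes, 4 held a sample far from the others by Dixon's criterion, used here only to describe. The genes were chosen by these same values and the groups share RNA, so no chance rate can be set beside this count. Grb10 A_52_P115787 was at 11.80 in control line 6, far below lines 3, 4 and 5 at 12.84, 12.91 and 13.05. Grb10 A_51_P187151 was at 7.75 in line 6, far below 8.21, 8.16 and 8.15. The ratio of differentiating clone B2 to line 6 on A_52_P40363 was 0.58, far above its ratios to lines 3, 4 and 5 (-0.38, -0.34 and -0.38), and that of clone 8 to line 6 on A_51_P187151 was 0.30, far above -0.09, -0.05 and -0.05. These 4 results are 1 pattern, that of control line 6.

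On 3 probes the ratio of the differentiating clones had one sign for all 3 clones against some control lines and the other sign for all 3 against others. These differences between control lines were not tested. Grb10 A_52_P40363 had a mean ratio of 0.69 against line 6, with all ratios to lines 3, 4 and 5 below 0. Ddc A_52_P470150 had a mean ratio of 0.083 against line 5, with all ratios to line 3 below 0 (mean -0.20). Ddc A_52_P63905 had a mean ratio of 0.17 against line 5, with all ratios to lines 3 and 6 below 0 (means -0.22 and -0.38).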

How the results depend on the processing

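Grb10 and Ddc differences were recomputed 305 times under the alternatives: 267 moved by less than the spread between lines (9 of them across 0), 37 moved by more (1 across 0), and 1 reversed. Deficient minus control iPSC, without normalization between arrays, gave 1.41 for Ddc A_52_P470150 and 19386 called genes against 11565, with 96.6% of them higher against 33%, and scaling to the 75th percentile gave 4426 genes (23.7% higher). Differentiating clones minus deficient iPSC, without normalization between arrays, gave -0.37 for Grb10 A_52_P115787, -1.39 for Ddc A_52_P470150 and 20400 genes against 13121 (5.02% higher against 63.2%; median of all genes -0.44 against 0.07), and the 75th percentile gave 5213 (74.3% higher). Deficient iPSC minus V6.5 ESC called 1350 genes (65.5% higher), against 3494 with the processed signals (44.9%), 3716 with no background correction (41.1%) and 18183 with the 75th percentile (20.4%); A_52_P40363 was at 0.67, against 1.88, 1.53 and 0.28, and at 1.48 in the deposited ratios. The 75th percentile reversed Ddc A_52_P63905 (-1.05) and Slc18a1 (-0.37) there. Deficient iPSC minus MEF gave 2.68 for Ddc A_52_P470150 with the processed signals, and -2.33 for Grb10 A_52_P115787 with the 75th percentile (62.2% of called genes higher against 48.4%; median of all genes 0.33). The cause of these shifts was not tested.

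Leaving out 1 line at a time gave, for differentiating clones minus control iPSC, 0 to 3460 genes against 1203, for differentiating clones minus deficient iPSC 0 (without A6, 10330 at an unadjusted p under 0.05) to 14609, and for deficient iPSC minus V6.5 ESC 384 (without B2; 443 without A6) to 1439. Grb10 A_52_P115787 ranged from 0.23 to 0.70 for deficient minus control iPSC and from 0.13 to 0.59 for differentiating clones minus control iPSC, both lowest without line 6. The arrays' replicate numbers do not pair the groups (r = -0.06 for number 1 and -0.06 for number 2 over 36729 probes), and with them as a replicate block these differences were 0.49 and 0.42, and the largest shift of any member was 0.0741. Of 1568 other recomputed list counts and named genes, 1245 were classed as the same and 217 list counts as moved. Of the named genes, 105 lost their call and 1 reversed. Dim probes, above all A_52_P63905 with net signals from 49.1, are limited by background. Slide could not be fitted for deficient against control iPSC, which share no slide.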
